A study of Mus musculus with 9 samples.

Results

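The genes described here are those of Wnt signalling: the Wnt ligands, their Frizzled (Fzd) and Lrp receptors, the secreted Dkk and Sfrp inhibitors, and the effectors Ctnnb1, Axin1, Axin2, Lef1, Tcf7, Tcf7l1 and Tcf7l2. They were chosen by symbol, as every row named Wnt, Fzd, Dkk or Sfrp with a number, or Lrp5, Lrp6 or 1 of the effectors, with a count above 0 in some library. This gave 47 of the 19250 features above 0, in a table of 36172: 19 ligands, 11 rows named Fzd, 2 co-receptors, 8 secreted inhibitors, 3 of beta-catenin and Axin, and 4 TCF/LEF factors. All rows that the symbols named were above 0. 1 of the Fzd rows, Fzd10os, is not a receptor but a noncoding RNA whose RefSeq extent ends 418 bp from that of Fzd10.

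RNA was sequenced from the medial prefrontal cortex (mPFC) of DBA2/J mice, an inbred strain, in 9 libraries of 3 groups with 3 replicates each. NS mice were not stressed and, by their treatment label, received saline. SA:ANH-vehicle mice had social defeat (smSDS, repeated exposure to an aggressor) over 5 days and received what the titles call vehicle and the treatment labels call saline. SA:ANH-KDM5Ci mice had the same defeat and received KDM5Ci, an inhibitor of KDM5C, a histone lysine demethylase. SA:ANH is the submitters' name for a subtype of defeated mice, and the sources used here give neither its meaning nor the identity and dose of the inhibitor or the sex and age of the mice. No group without stress received the inhibitor. The labels do not state whether each replicate was a mouse of its own. Every p-value thus reflects the scatter among the 3 samples of a group, and that scatter may be technical. In the main fit this scatter was estimated over all 3 groups, so it includes the group that is not compared.

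Wnt proteins are secreted, lipid-modified signals. In the beta-catenin branch, a Wnt that binds a Frizzled receptor and the co-receptor Lrp5 or Lrp6 halts the destruction complex that Axin scaffolds, so that beta-catenin (Ctnnb1) builds up and joins TCF/LEF factors on target genes. Other branches act on the cytoskeleton and on calcium without beta-catenin. In the brain, Wnt signalling patterns the embryo, forms and keeps the blood-brain barrier through brain endothelium, and shapes synapses.

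Depth ran from 29845097 to 42196472 counts per library. Levels are in CPM, the counts of a gene scaled to a common library size, given as mean ± SD over the 3 libraries of a group. A count of 0 allows up to 3 counts, 0.0711 CPM at the greatest depth and 0.101 CPM at the least, for counting error only. The low-count filter kept 15144 features and 40 of the 47 members. Those not tested were Wnt1, Wnt3a, Wnt8a, Wnt8b, Wnt11, Dkk1 and Dkk4. Fold changes are on the log2 scale, with a standard error (SE) and with p-values from edgeR's quasi-likelihood test, Benjamini-Hochberg adjusted over all 15144 features, with 0.05 as the threshold.

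Markers of cell types that a piece of cortex could hold differed between libraries. The 16 marker genes of meninges and fibroblasts summed to 500 to 810 CPM in NS, 643 to 878 in SA:ANH-vehicle and 414 to 557 in SA:ANH-KDM5Ci, and 6 of the 16 were called lower with the inhibitor than with vehicle and 0 higher (1.62% and 0.891% of all features tested), or 4 lower with the replicate number as a block. All 16 log2 fold changes were below 0 in this comparison (median -0.76), 15 of them at an unadjusted p under 0.05. Inhibitor against NS also gave all 16 below 0, with 3 called lower, where 2.11% of all features were. The 12 endothelial markers summed to 278 to 301, 282 to 317 and 224 to 296 CPM, with 3 of 12 called lower. The 12 markers of striatal neurons summed to 234 to 388, 257 to 337 and 311 to 739 CPM; SA:ANH-KDM5Ci replicate 1 was highest, and all 12 fold changes were above 0, with 0 called by edgeR, 4 by edgeR with the replicate number as a block, 5 at an unadjusted p under 0.05 and 1 called by DESeq2. Oligodendrocyte markers summed to 1531 to 3120, 1996 to 3141 and 2808 to 3681 CPM. Their 9 fold changes were all above 0 for the inhibitor against vehicle and against NS, with 0 called by edgeR, or 4 against NS with the block. All defining markers of these 4 lists had a count above 0 in some library. Blood cell markers, 5 genes of which most are globins, summed to 279 to 321 CPM in NS, 486 to 554 in SA:ANH-vehicle and 444 to 586 in SA:ANH-KDM5Ci, so both defeat groups lay above NS. For vehicle against NS, 2 of 5 (Hbb-b1 and Hbb-bs) were called higher, and they were the only 2 features that edgeR called there (0.0132% of all tested). For inhibitor against NS, 5 of 5 were called higher, where 1.86% of all features tested were. Among mural cell markers, with Acta2 listed at 0, the sums overlapped and 2 of 9 (Pdgfrb and Anpep) were called lower with the inhibitor than with vehicle, 1 with the block. Oligodendrocyte precursor markers summed to 231 to 270 CPM in NS, 226 to 248 with vehicle and 265 to 285 with the inhibitor. Against vehicle, 2 of 7 (Olig1 and Olig2) were called higher with the inhibitor, but the list did not move as a whole. Its median log2 fold change was 0.06, with 4 of 7 above 0. At an unadjusted p under 0.05, 2 were higher and 2 lower, and DESeq2 and edgeR with the block each called 1 lower. Excitatory neuron markers, which define the labelled tissue, summed to between 5593 and 6303 CPM in every library. The part of these differences in the results below was not tested. In bulk tissue, fewer cells of a type and less RNA per cell cannot be told apart.

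Per length of exon, over all 9 libraries, the Wnt pathway of the mPFC was dominated by an inhibitor-family member and by beta-catenin. Dkk3, a Dickkopf relative that is abundant in cortical neurons, stood at 162 CPM per kb, and Ctnnb1 at 137 CPM per kb. The next was Fzd3, a receptor known for axon guidance, at 14.4 CPM per kb. Among ligands the order was Wnt7b (10.6 CPM per kb), Wnt9a (9.06), Wnt4 (7.33), Wnt10a (5.53), Wnt7a (3.16), Wnt2 (2.31) and Wnt5a (1.23), and the other 12 stood below 1 CPM per kb. Wnt7a and Wnt7b are the ligands that maintain the blood-brain barrier. The place of Wnt9a depended on the group: it was above Wnt7b in NS, at 11.2 against 10.8 CPM per kb, and below Wnt4 in SA:ANH-KDM5Ci, at 6.69 against 7.74 CPM per kb. Among receptors Fzd3 was followed by Lrp6 (6.67 CPM per kb), Fzd1 (3.18), Fzd2 (2.78), Fzd6 (2.2), Fzd9 (1.97), Lrp5 (1.80) and Fzd7 (1.32). Axin1 (7.66 CPM per kb) and Axin2 (5.90) stood above all 4 TCF/LEF factors, which were within a narrow band: Lef1 at 1.51, Tcf7l1 at 1.31, Tcf7 at 0.969 and Tcf7l2 at 0.855 CPM per kb. At the low end, Wnt8a and Dkk4 had at most 2 counts in any library.

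**Figure D1:**
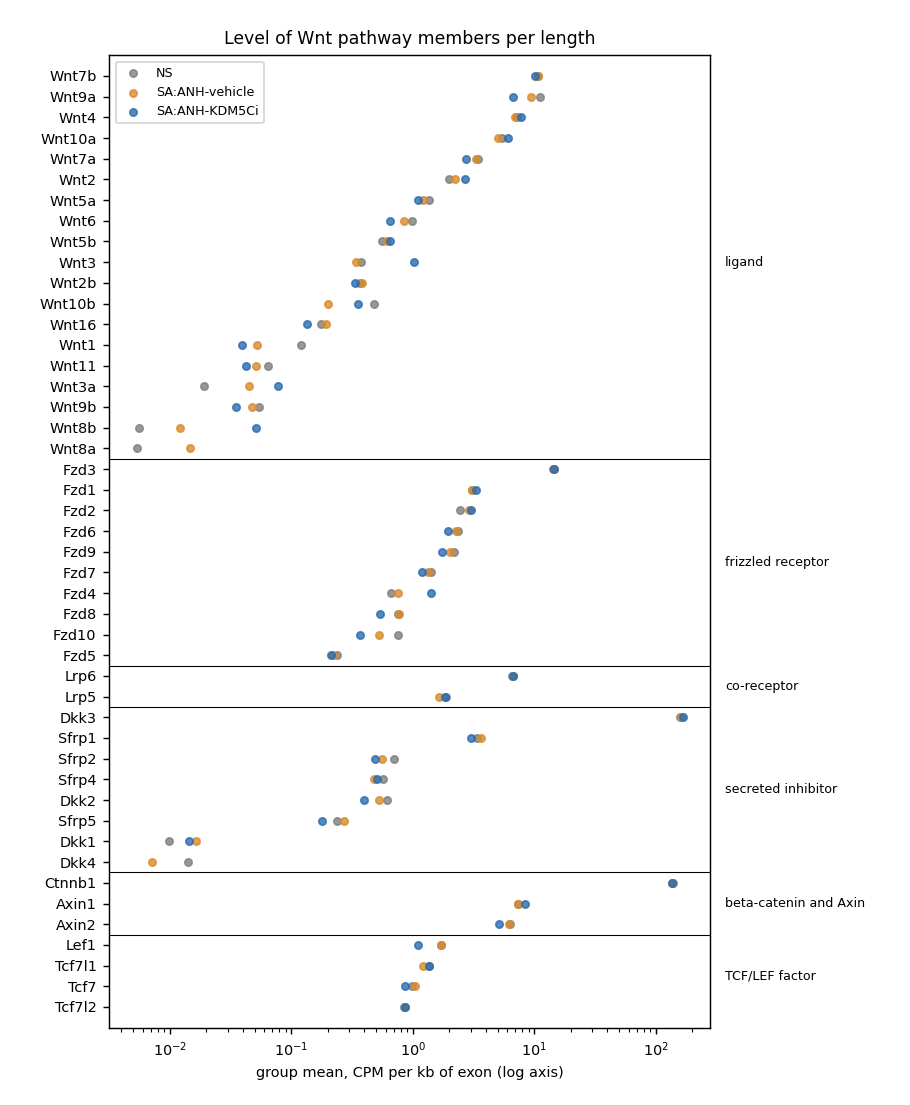
Mean level of each member in the 3 groups, in CPM per kb of exon on a log axis, ordered by role; each point is the mean of 3 libraries, and a group at 0 (Wnt8a and Dkk4 in SA:ANH-KDM5Ci) has no point. Dkk3 and Ctnnb1 lie above 100 CPM per kb in every group, and in the tested members the groups separate visibly for Wnt3, Wnt10b, Wnt9a, Fzd4, Fzd10 and Lef1.

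With the inhibitor, 1 tested member rose against vehicle and 3 fell. Wnt3 rose, and Wnt9a, the receptor gene Fzd8 and the transcription factor gene Lef1 fell. This is 4 of 40 tested members, where 2.51% of all features tested were called, 0.891% as higher and 1.62% as lower. The members were chosen with earlier results of these data known, so these shares are only given side by side. In the 9 fits that left out a library, Wnt9a was called in 9, Lef1 in 4, Wnt3 in 3 and Fzd8 in 1. With the replicate number as a block, Lef1 (adjusted p = 0.0623) and Fzd8 (0.0636) were not called, and Axin2 was called lower (0.0458). The members' median log2 fold change was -0.06, with 16 above 0 and 24 below, against a median of 0.00 over all features. For 5 members the 3 inhibitor libraries were all above the 3 vehicle libraries and for 9 all below, and 18.9% of all features were apart in this way, 7.91% above and 11.0% below. An unadjusted p under 0.05 was found for 13 members and 14.2% of all features. Defeat with vehicle against NS gave 0 called members by edgeR or limma-voom, where edgeR called 0.0132% of all features as higher and 0.0% as lower. In that comparison 4 members had an unadjusted p under 0.05, and 8.21% of all features did, while DESeq2 called 1 member, Wnt10b, and 0.517% of its features. The vehicle libraries lay all above NS for 1 member and all below for 4, as 15.2% of all features did, 8.34% above and 6.83% below. Against NS, the inhibitor group was higher in Wnt3 and Fzd4 and lower in Wnt9a, Axin2 and Lef1: 5 of 40 members, where 3.97% of all features were called, 1.86% as higher and 2.11% as lower. Here 5 members lay all above and 11 all below NS, and 23.4% of all features did, 11.5% above and 12% below. The comparisons with NS and with vehicle share the inhibitor libraries, and both comparisons that involve vehicle share the vehicle libraries, so their values are given side by side and are not independent.

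**Figure D2:**
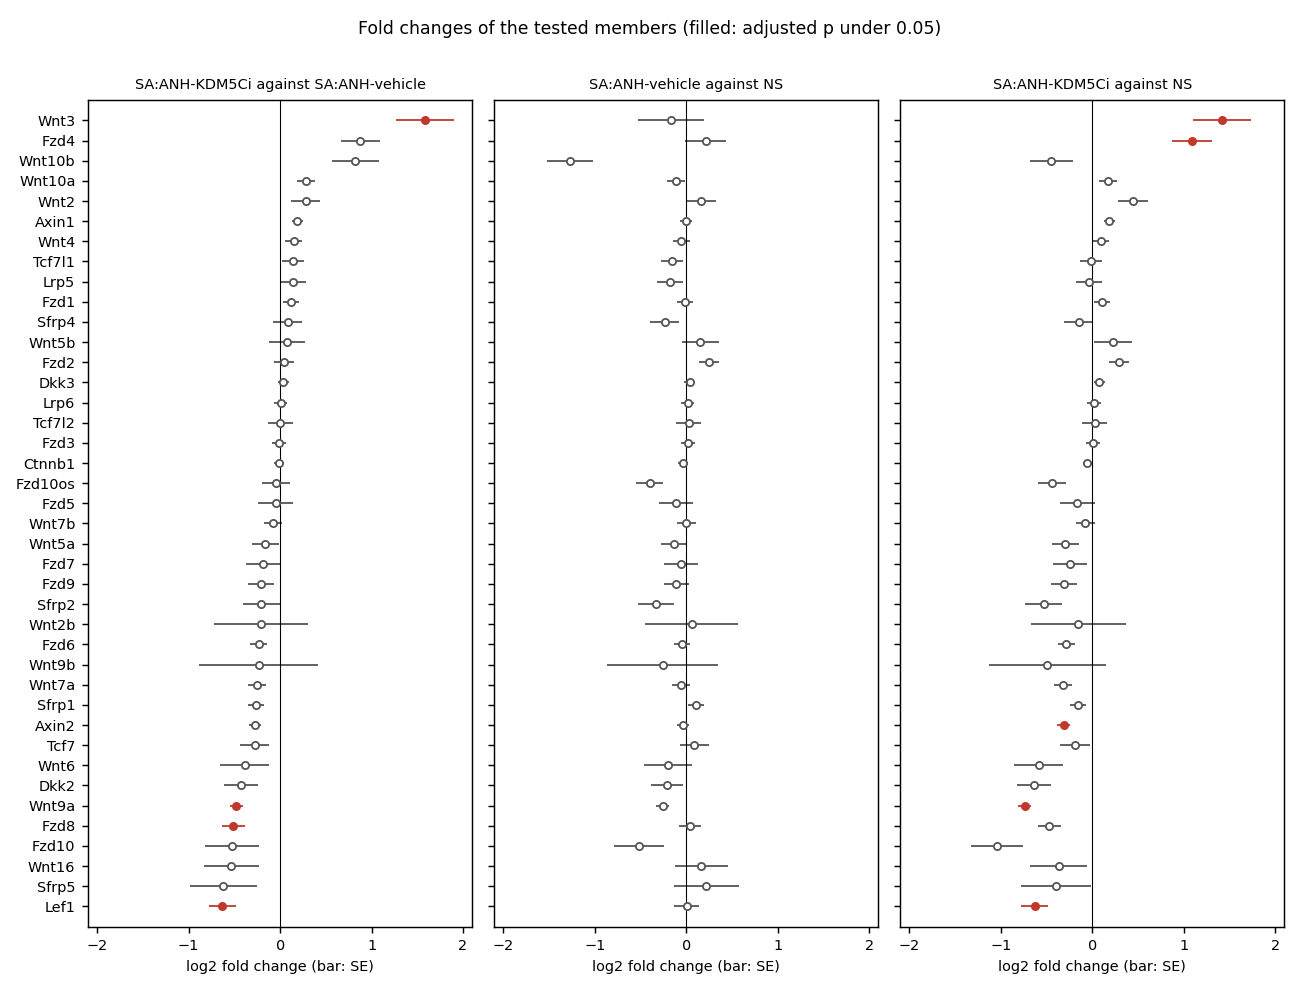
Log2 fold change of the 40 tested members in the 3 comparisons, ordered by the first; bars are 1 SE and filled points have an adjusted p under 0.05. In this fit, which has no replicate block, the called members are Wnt3, Wnt9a, Fzd8 and Lef1 in the first panel and none in the second. In the third they are Wnt3, Fzd4, Wnt9a, Axin2 and Lef1.

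Wnt9a (NCBI gene 216795, chr11:59306849-59333552 on GRCm38), a ligand best known from joint and blood stem cell development, gave the lowest adjusted p of the members. Its level was 38.0, 35.5 and 37.9 CPM in the NS libraries, 32.8, 30.8 and 29.5 CPM with vehicle, and 20.4, 24.4 and 22 CPM with the inhibitor. The 3 groups did not overlap, with NS highest and the inhibitor group lowest. Group means were 37.1 ± 1.42, 31.1 ± 1.67 and 22.3 ± 2.03 CPM (SD, n = 3). With the inhibitor Wnt9a fell against vehicle by 0.48 on the log2 scale (SE 0.07, adjusted p = 0.00281) and against NS by 0.74 (SE 0.07, adjusted p = 7.46e-05). Vehicle against NS gave -0.26 (SE 0.07, adjusted p = 0.302). Both calls held in all 18 alternatives, with an adjusted p of at most 0.0154 against vehicle and 0.00104 against NS.

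Wnt3 (chr11:103774175-103818021), a ligand of the beta-catenin branch, was the member with the greatest fitted rise. The 3 inhibitor libraries lay close together at 3.09, 3.29 and 3.04 CPM. The vehicle libraries had 1.20, 0.899 and 1.03 CPM, and the NS libraries 2.03, 0.872 and 0.569 CPM, so NS replicate 1 stood apart from the other NS libraries but below every inhibitor library. The log2 fold change was 1.58 against vehicle (SE 0.32, adjusted p = 0.0233), or 2.99-fold, and 1.41 against NS (SE 0.32, adjusted p = 0.0300), while vehicle against NS gave -0.17 (SE 0.36, adjusted p = 0.953). These levels rest on few reads: 94.23, 101.8 and 122 expected counts with the inhibitor, and 51, 32.12 and 35 with vehicle. The call against vehicle was lost when any 1 of the 6 libraries compared was left out, with an adjusted p from 0.0578 (without SA:ANH-vehicle replicate 1) to 0.111, although the fold change stayed between 1.49 and 1.70. That call held with only the 2 groups (adjusted p = 0.000693) and without NS replicate 1 (0.000424), 2 (0.0286) or 3 (0.00766). With a library left out, the call against NS held without NS replicate 1 or SA:ANH-vehicle replicate 1 and was lost in the other 7 fits (adjusted p up to 0.125), and it was lost with only the 2 groups (0.0646). Wnt3 overlaps Wnt9b by 1098 bp, and Wnt9b had 0.244 ± 0.103, 0.213 ± 0.124 and 0.160 ± 0.164 CPM in NS, vehicle and inhibitor (SD, n = 3), below Wnt3 in each library.

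Wnt10b (chr15:98770712-98778206), a ligand known for holding back fat cell formation, had the largest difference between vehicle and NS. NS libraries had 1.19, 1.64 and 2.07 CPM and vehicle libraries 0.547, 0.700 and 0.796 CPM, which did not overlap. The inhibitor libraries, from 1.02 to 1.29 CPM, lay above vehicle and within or below the NS range. The log2 fold change was -1.27 for vehicle against NS (SE 0.25, adjusted p = 0.115), 0.82 for inhibitor against vehicle (SE 0.26, adjusted p = 0.135) and -0.45 for inhibitor against NS (SE 0.23, adjusted p = 0.328). None passed edgeR's test, and DESeq2 called the first, with an adjusted p of 0.0217. Its neighbour Wnt1, a founding member of the family that lies 11.7 kb away, was not tested: it had 8, 13 and 8 counts in NS, 2, 8 and 3.36 with vehicle, and 4, 3 and 2 with the inhibitor.

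The other 11 tested ligands passed in none of the 3 comparisons. Wnt7a had 10.9 ± 1.14 CPM in NS, 10.4 ± 0.305 with vehicle and 8.71 ± 0.859 with the inhibitor (SD, n = 3), with every inhibitor library below every other, at -0.26 against vehicle on the log2 scale (SE 0.10, adjusted p = 0.238). Wnt7b, its close relative, had 49.7 ± 1.70, 49.8 ± 8.39 and 47.1 ± 2.65 CPM. Wnt4 had 30.5 ± 2.72, 29.3 ± 2.67 and 32.4 ± 3.57 CPM, and Wnt10a 13.4 ± 1.17, 12.5 ± 1.02 and 15.1 ± 1.59 CPM, both with overlapping groups. Wnt5a, the ligand most tied to the branches without beta-catenin, had 9.49 ± 1.62, 8.6 ± 0.446 and 7.75 ± 1.52 CPM. Wnt2 had 5.05 ± 0.218 CPM with vehicle and 6.11 ± 0.697 with the inhibitor, which did not overlap, at 0.28 (SE 0.16, adjusted p = 0.492). Wnt16 had 0.845 ± 0.138 CPM with vehicle and 0.587 ± 0.0516 with the inhibitor, which did not overlap, at -0.54 (SE 0.30, adjusted p = 0.477). Wnt2b, Wnt5b, Wnt6 and Wnt9b had overlapping groups in all 3 comparisons. Wnt2b ran from 0.672 to 2.35 CPM within the vehicle group, and it shares 4524 bp with St7l.

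Among the receptors, Fzd4 (chr7:89404366-89410110) was the one with the largest rise. It encodes the receptor that brain and retinal vessels need to respond to Norrin and Wnt. NS libraries had 3.24, 4.65 and 5.44 CPM, vehicle libraries 5.76, 5.78 and 3.82 CPM, and inhibitor libraries 11.5, 9.52 and 7.50 CPM. All inhibitor libraries lay above all others, and NS and vehicle overlapped. Fzd4 rose against NS by 1.09 on the log2 scale (SE 0.22, adjusted p = 0.0183), and the difference from vehicle was 0.88 (SE 0.21, adjusted p = 0.0627), which did not pass. The call against NS was lost without NS replicate 2 (adjusted p = 0.0631) and without SA:ANH-KDM5Ci replicate 1 (adjusted p = 0.0643). The difference from vehicle did pass without NS replicate 1 (adjusted p = 0.0250), with DESeq2 (0.00133), with only the 2 groups (0.0450) and without robust moderation (0.0456). Fzd4 shares 338 bp with Tmem135, whose log2 fold change against vehicle was 0.08 (adjusted p = 0.482).

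Fzd8 (chr18:9212856-9216201), a receptor of the beta-catenin branch, had 4.21, 4.46 and 4.93 CPM in NS, 4.60, 5.16 and 4.16 CPM with vehicle, and 3.02, 3.29 and 3.42 CPM with the inhibitor. The inhibitor libraries were below all others. Fzd8 fell against vehicle by 0.51 on the log2 scale (SE 0.12, adjusted p = 0.0474), and the difference from NS was -0.47 (SE 0.13, adjusted p = 0.0529). The first call was close to the threshold: it held in 1 of 9 fits that left out a library, the one without NS replicate 1 (adjusted p from 0.0499 to 0.202 over the 9), and in 4 of the 9 other alternatives. With the replicate number as a block, which treats same-numbered libraries as if paired, its adjusted p was 0.0636.

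Fzd10 had 3.11, 2.28 and 2.06 CPM in NS, 2.54, 1.48 and 1.13 CPM with vehicle, and 0.916, 1.39 and 1.29 CPM with the inhibitor. Inhibitor and NS libraries did not overlap, at -1.04 on the log2 scale (SE 0.29, adjusted p = 0.0640). DESeq2 called this difference (adjusted p = 0.0244), as did edgeR with only the 2 groups (0.0273) and without SA:ANH-vehicle replicate 1 (0.0165) or 3 (0.0409). Fzd10os, the noncoding RNA beside it, had 3.31 ± 0.189 CPM in NS, 2.49 ± 0.450 with vehicle and 2.43 ± 0.0733 with the inhibitor (SD, n = 3). NS lay above both defeat groups, and its log2 fold change was -0.40 for vehicle against NS (SE 0.15, adjusted p = 0.5) and -0.44 for inhibitor against NS (SE 0.15, adjusted p = 0.129). The strand used in counting was not given, so reads of such neighbours may not be fully separated.

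Fzd2 had 8.85, 9.23 and 8.77 CPM in NS and 10.9, 10.8 and 10.2 CPM with vehicle, the only tested member whose vehicle libraries all lay above NS. Its log2 fold change was 0.25 (SE 0.11, adjusted p = 0.565), and 0.29 for inhibitor against NS (SE 0.11, adjusted p = 0.160). Fzd3, the most abundant receptor per length, had 183 ± 19.2, 185 ± 8.76 and 184 ± 15.0 CPM in the 3 groups. Fzd6 had 10.4 ± 0.0925 CPM in NS, 11.1, 9.69 and 9.29 CPM with vehicle and 9.23, 8.11 and 8.29 CPM with the inhibitor, with the inhibitor libraries below all others at -0.24 against vehicle (SE 0.09, adjusted p = 0.238). Fzd1, Fzd5, Fzd7 and Fzd9 had adjusted p-values from 0.265 to 0.992 over the 3 comparisons. The co-receptors passed in no comparison by edgeR, DESeq2 or limma-voom, with 0 at an unadjusted p under 0.05: Lrp6 had 62.0 ± 2.0, 62.6 ± 6.77 and 62.9 ± 3.98 CPM, with log2 fold changes of 0.00, 0.02 and 0.02 (SE 0.07 each) that changed sign under some settings, and Lrp5 had 11.3 ± 0.384, 9.97 ± 2.11 and 11.1 ± 1.61 CPM.

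No secreted inhibitor passed in any comparison by edgeR, DESeq2 or limma-voom, and 2 had an unadjusted p under 0.05 in each comparison of the KDM5C inhibitor group. Dkk3 had 530 ± 23.6, 545 ± 46.8 and 559 ± 15.4 CPM in NS, vehicle and inhibitor (SD, n = 3). Sfrp1, a decoy that binds Wnt proteins outside the cell, had 14.2, 17.4 and 15.9 CPM with vehicle and 14.2, 13.3 and 12.2 CPM with the inhibitor, at -0.26 on the log2 scale (SE 0.09, adjusted p = 0.178). The highest inhibitor library lay just below the lowest vehicle library. Dkk2, which binds Lrp5 and Lrp6, had 2.28 ± 0.421, 1.97 ± 0.207 and 1.48 ± 0.235 CPM, and its inhibitor libraries lay below all others, at -0.43 against vehicle (SE 0.19, adjusted p = 0.32) and -0.64 against NS (SE 0.19, adjusted p = 0.0810). Sfrp2 had 1.55, 1.17 and 1.51 CPM in NS, 1.15, 1.21 and 1.00 CPM with vehicle, and 1.06, 1.07 and 0.822 CPM with the inhibitor, at -0.33 for vehicle against NS (SE 0.20, adjusted p = 0.716). Sfrp4 and Sfrp5 had 2.37 ± 0.200 and 0.451 ± 0.124 CPM in NS. The median log2 fold change of the 6 tested inhibitors was -0.23 against vehicle, with 2 of 6 above 0.

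Beta-catenin itself did not differ detectably. Ctnnb1 had 488, 516 and 520 CPM in NS, 456, 515 and 515 CPM with vehicle, and 482, 504 and 484 CPM with the inhibitor, with log2 fold changes between -0.05 and -0.02 (SE 0.05 each). RNA levels say nothing of the protein, whose amount this pathway sets by degradation. Axin2 (chr11:108917828-108950783) scaffolds the destruction complex and is a widely used readout of beta-catenin signalling, since it is a direct target. Its libraries had 28.9, 26.8 and 25.6 CPM in NS, 28.2, 24.4 and 26.7 CPM with vehicle, and 22.6, 21.8 and 21.2 CPM with the inhibitor. The inhibitor libraries lay below all others. Axin2 fell against NS by 0.31 on the log2 scale (SE 0.07, adjusted p = 0.0253), the difference from vehicle was -0.28 (SE 0.07, adjusted p = 0.0614, and 0.0458 with the replicate number as a block), and vehicle against NS gave -0.04 (SE 0.07, adjusted p = 0.943). The call against NS held in 4 of 9 fits that left out a library, and was lost without NS replicate 1 or 2 and without each of the inhibitor libraries (adjusted p up to 0.0838). The difference from vehicle also passed with DESeq2 (0.0408), by library size without TMM (0.0452) and without NS replicate 1 (0.0497). Axin1, the constitutive scaffold, had 27.7 ± 0.990, 27.6 ± 1.08 and 31.5 ± 1.76 CPM, with the inhibitor libraries above all others at 0.19 against vehicle (SE 0.06, adjusted p = 0.146) and 0.19 against NS (SE 0.06, adjusted p = 0.114).

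Lef1 (chr3:131110297-131224357) was the TCF/LEF factor that changed. It is itself a frequent target of beta-catenin signalling and marks brain endothelium as well as some thalamic neurons. Its libraries had 5.82, 5.29 and 6.82 CPM in NS, 5.75, 6.38 and 5.82 CPM with vehicle, and 4.47, 4.14 and 3.06 CPM with the inhibitor. The inhibitor libraries were below all others, and NS and vehicle had means of 5.98 ± 0.775 and 5.99 ± 0.345 CPM. Lef1 fell by 0.63 on the log2 scale against vehicle (SE 0.14, adjusted p = 0.0358) and by 0.63 against NS (SE 0.15, adjusted p = 0.0291). The call against vehicle was lost in 5 of 9 fits that left out a library, those without any 1 vehicle library or without SA:ANH-KDM5Ci replicate 2 or 3 (adjusted p from 0.0649 to 0.148), in the fit of only the 2 groups (0.0540) and with the replicate number as a block (0.0623). The call against NS was lost without NS replicate 1 or 3 or SA:ANH-KDM5Ci replicate 3 (up to 0.139) and with only the 2 groups (0.0543). Tcf7 had 2.61 ± 0.388, 2.75 ± 0.395 and 2.27 ± 0.160 CPM, Tcf7l1 4.20 ± 0.226, 3.76 ± 0.310 and 4.17 ± 0.358 CPM, and Tcf7l2, the factor most abundant in thalamus, 3.74 ± 0.270, 3.79 ± 0.273 and 3.83 ± 0.616 CPM. Their groups overlapped in every comparison, with adjusted p-values from 0.494 to 0.998.

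**Figure D3:**
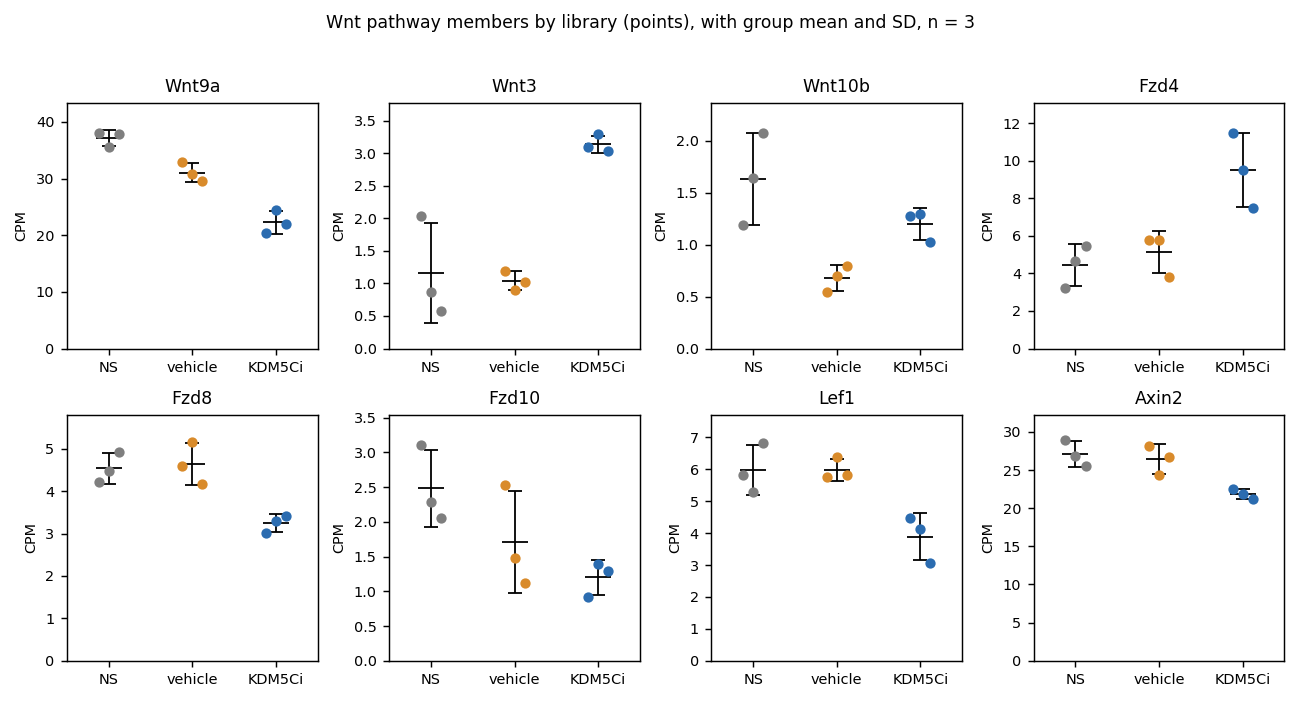
CPM of 8 members in each library, with the group mean and SD (n = 3); the vertical axes start at 0 and differ between panels. The inhibitor libraries lie above all others for Wnt3 and Fzd4 and below all others for Wnt9a, Fzd8, Lef1 and Axin2; for Fzd10 they lie below NS and overlap vehicle, and the vehicle libraries lie below all others for Wnt10b.

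**Figure D4:**
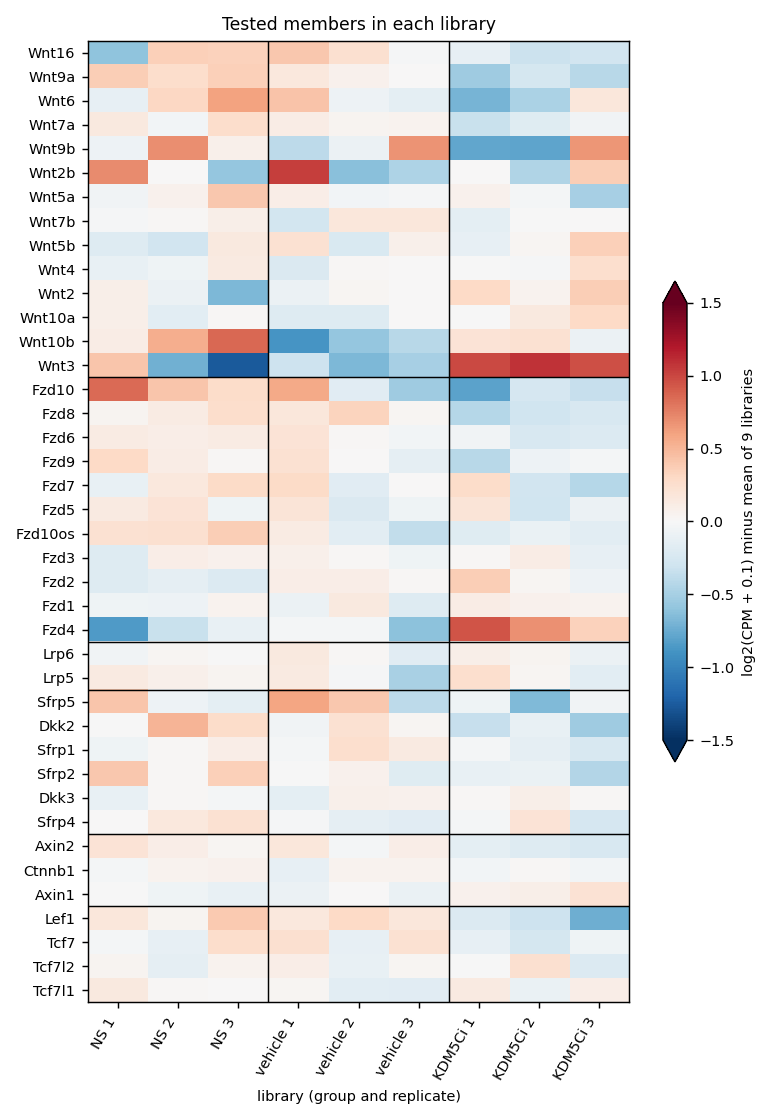
Level of the 40 tested members in each library, as log2(CPM + 0.1) minus the mean of the 9 libraries, grouped by role with lines between roles and between groups. Wnt3 and Fzd4 are above their mean in all 3 inhibitor libraries, Wnt9a, Lef1, Fzd8 and Axin2 are below it there, and Wnt2b and Wnt9b vary within groups.

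Of the 5 calls against NS for the inhibitor group, that of Wnt9a held in all 18 alternatives, Fzd4 in 16, Lef1 in 14, Axin2 in 13 and Wnt3 in 10. CpG content is a feature that the choice of members did not use, and the promoters of these 5 members are shown. Each is the 250 bases before the RefSeq start of the gene on GRCm38.p6, plus strand, 5′ to 3′, with every CpG in capitals: chr11:59306680-59306929 for Wnt9a, chr11:103773925-103774174 for Wnt3, chr7:89404116-89404365 for Fzd4, chr11:108920099-108920348 for Axin2, and chr3:131110047-131110296 for the first of 4 listed starts of Lef1. The starts of Wnt9a and Axin2 lie inside the gene extents given above.
Wnt9a: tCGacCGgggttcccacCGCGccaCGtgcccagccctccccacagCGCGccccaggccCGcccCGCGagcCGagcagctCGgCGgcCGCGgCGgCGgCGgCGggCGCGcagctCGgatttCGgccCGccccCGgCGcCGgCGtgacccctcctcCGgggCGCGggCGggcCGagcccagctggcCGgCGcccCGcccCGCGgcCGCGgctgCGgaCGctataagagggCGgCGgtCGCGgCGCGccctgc
Wnt3: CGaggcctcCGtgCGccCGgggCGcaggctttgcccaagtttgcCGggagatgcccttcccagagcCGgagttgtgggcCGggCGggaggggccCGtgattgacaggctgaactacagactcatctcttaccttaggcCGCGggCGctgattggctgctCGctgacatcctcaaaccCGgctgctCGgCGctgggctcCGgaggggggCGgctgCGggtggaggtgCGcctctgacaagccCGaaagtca
Fzd4: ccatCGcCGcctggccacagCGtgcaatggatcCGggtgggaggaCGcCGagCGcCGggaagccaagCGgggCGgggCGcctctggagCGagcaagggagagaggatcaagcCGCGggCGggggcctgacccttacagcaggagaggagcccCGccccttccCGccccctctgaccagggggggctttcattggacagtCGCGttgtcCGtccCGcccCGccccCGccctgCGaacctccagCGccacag
Axin2: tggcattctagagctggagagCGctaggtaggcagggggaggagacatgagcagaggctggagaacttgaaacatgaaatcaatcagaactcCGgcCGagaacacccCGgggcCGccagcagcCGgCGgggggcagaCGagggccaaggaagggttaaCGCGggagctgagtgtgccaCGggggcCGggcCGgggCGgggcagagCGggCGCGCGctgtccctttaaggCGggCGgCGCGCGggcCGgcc
Lef1: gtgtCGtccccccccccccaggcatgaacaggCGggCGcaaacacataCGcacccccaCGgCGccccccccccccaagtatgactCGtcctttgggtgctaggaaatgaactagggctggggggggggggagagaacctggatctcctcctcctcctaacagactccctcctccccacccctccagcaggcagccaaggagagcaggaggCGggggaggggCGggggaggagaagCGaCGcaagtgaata
The Wnt9a window holds 48 CpG at 84.4% GC, and 0.186% of the 32851 promoter windows of this length in the RefSeq table hold as many or more. Fzd4 has 25, Axin2 24 and Wnt3 22 CpG, and 10.7%, 12% and 14.8% of all windows hold as many or more. Lef1 has 11, and 35.6% of all windows hold as many or more. The table matched 31 of the 47 members with 40 windows, whose median was 22 CpG and 68.6% GC, against 6 CpG and 52.4% GC over all windows. The letters CTTTGAT, to which TCF/LEF factors bind, occurred on either strand in 2 of the 40 windows (Wnt11 and Wnt5b), or 5.0% against 3.21% of all windows, and CTTTGAA in 1 (Dkk1), or 2.5% against 4.46%. None of the 5 windows shown has either, which says only that these letters are not in those 250 bases.

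Other genes of the pathway were read from 7 lists, each given for the inhibitor against vehicle first. The lists were chosen with earlier results of these data known, so the share of a list that was called is no test of that list. Of 28 tested target genes of beta-catenin, 5 fell (Sox9, Notum, Mycn, Apcdd1 and Vegfa) and 0 rose, where 1.62% of all features fell and 0.891% rose. The median of the list was -0.03, with 14 of 28 above 0. DESeq2 and limma-voom called the same numbers, and at an unadjusted p under 0.05 there were 7 lower and 5 higher targets, where 14.2% of all features passed in either direction. Sox9, a glial transcription factor, had 33.8, 33.7 and 33.2 CPM with vehicle and 15.1, 17.1 and 17.1 CPM with the inhibitor, and fell by 1.03 on the log2 scale (SE 0.06, adjusted p = 1.2e-06). Sox9 is also an astrocyte marker, and the 10 astrocyte markers summed to 4485 to 5026 CPM with vehicle and 4554 to 5178 CPM with the inhibitor. Notum, an enzyme that strips the lipid from Wnt proteins, had 2.56, 2.44 and 2.53 CPM with vehicle and 1.17, 1.14 and 1.36 CPM with the inhibitor, and fell by 1.03 (SE 0.16, adjusted p = 0.00340). Apcdd1, a membrane inhibitor of Wnt, had 25.5, 27.0 and 26.9 CPM with vehicle and 18.6, 20.6 and 19.5 CPM with the inhibitor, and fell by 0.44 (SE 0.08, adjusted p = 0.00789). All 3 had groups that did not overlap. Mycn fell by 1.1 (SE 0.17, adjusted p = 0.00476) and Vegfa by 0.31 (SE 0.06, adjusted p = 0.0113). The targets Ccnd1, Lgr5, Nkd1, Rnf43, Znrf3 and Myc had log2 fold changes from -0.30 to 0.22 and did not pass. Against NS, 8 of the 28 were lower, the same 5 with Sox4, Jun and Tnfrsf19, and 0 were higher, where 2.11% and 1.86% of all features were. In that comparison DESeq2 called 8 lower and 1 higher. Of 18 alternatives, the call against NS held in 18 for Sox9, Notum, Mycn and Apcdd1. It held in 17 for Sox4, 14 for Vegfa, 13 for Jun and 11 for Tnfrsf19. For vehicle against NS, edgeR called 0 in each of the 7 lists, with 0 to 1 higher and 1 to 4 lower at an unadjusted p under 0.05, DESeq2 called 1 lower in 3 of the lists, and limma-voom called 1 lower in the endothelial list.

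Genes that Wnt is known to control in brain endothelium moved both ways. This list, too, was chosen with earlier results of these data known. Of 16 tested, 5 fell (Cldn5, Sox17, Sox18, Foxq1 and Apcdd1) and 2 rose (Slc2a1 and Mfsd2a) with the inhibitor against vehicle, at a list median of -0.24, where 1.62% and 0.891% of all features did. Cldn5, the main tight junction protein of the barrier, had 29.9, 30.2 and 30.7 CPM with vehicle and 18.7, 17.7 and 19.4 CPM with the inhibitor, and fell by 0.70 (SE 0.06, adjusted p = 1.56e-05). Slc2a1 encodes the glucose transporter of barrier endothelium, and had 79.2, 84.8 and 79.1 CPM with vehicle and 163, 136 and 148 CPM with the inhibitor, and rose by 0.88 (SE 0.07, adjusted p = 1.33e-05). Mfsd2a, a lipid transporter of the same cells, had 17.9 ± 0.266 CPM with vehicle and 24.5 ± 1.08 with the inhibitor and rose by 0.45 (SE 0.07, adjusted p = 0.00496). Plvap, which marks leaky vessels and is repressed by Wnt, had 14.5 ± 0.584 and 15.6 ± 0.514 CPM, at 0.10 (SE 0.08, adjusted p = 0.661). Sox17 is also a partner of beta-catenin, and the only one of 16 nuclear co-factors that was called: it had 6.51, 6.28 and 6.43 CPM with vehicle and 4.14, 3.76 and 3.46 CPM with the inhibitor, and fell by 0.77 (SE 0.11, adjusted p = 0.00290). Against NS, 7 of the 16 were lower (Cldn5, Apcdd1, Sox18, Sox17, Foxq1, Foxf2 and Tnfrsf19) and 1 was higher (Slc2a1). Of all features, 2.11% were called lower and 1.86% higher in that comparison. Mfsd2a was not called there, and of 18 alternatives the call held in 16 for Foxf2, 14 for Foxq1 and 11 for Tnfrsf19. The summed endothelial markers, 224 to 296 CPM with the inhibitor and 282 to 317 with vehicle, overlapped, Cldn5 is in both lists, and their part in these results was not tested.

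In the remaining lists few genes passed. Of 18 tested secretion and extracellular genes, Tinagl1, a matrix protein that can bind Frizzled, rose by 0.82 (SE 0.12, adjusted p = 0.00336) from 5.08, 4.59 and 3.96 CPM with vehicle to 7.02, 7.71 and 9.34 CPM, while Notum and Apcdd1 fell. Porcn and Wls, which every Wnt needs to be lipid-modified and secreted, had log2 fold changes of 0.01 and -0.14 (adjusted p = 0.939 and 0.518). Of 26 cytoplasmic transducers, Dact2, which binds Dishevelled, fell by 0.33 (SE 0.05, adjusted p = 0.00492) from 99, 108 and 98.9 CPM to 80.1, 82.4 and 80.8 CPM, and the destruction complex genes Apc and Gsk3b had 0.08 and 0.01 (adjusted p = 0.794 and 0.972). Of 16 receptor turnover genes and 22 genes of the polarity and calcium branch, 0 passed edgeR's test against vehicle, with 2 and 4 at an unadjusted p under 0.05, and DESeq2 called 0 and 1. Against NS, Nfatc3 of the latter was lower, a call lost in 8 of the 18 alternatives.

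**Figure D5:**
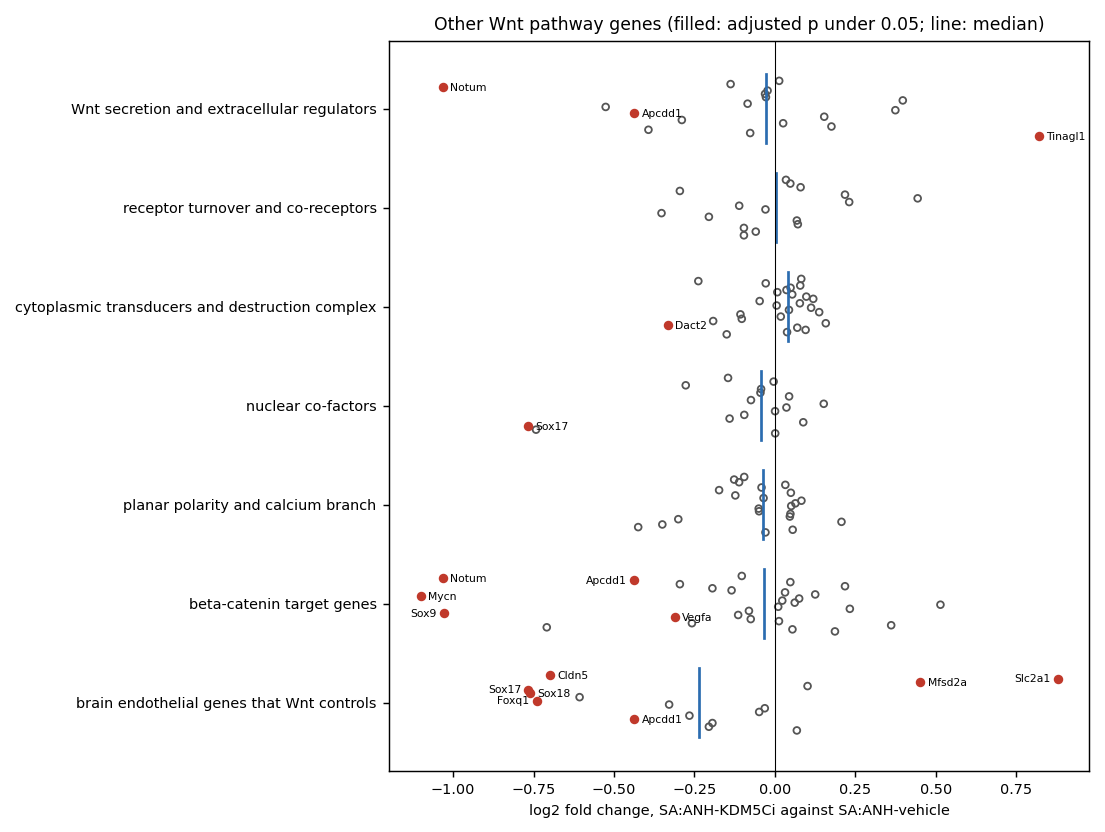
Log2 fold change of SA:ANH-KDM5Ci against SA:ANH-vehicle for the tested genes of 7 Wnt pathway lists; each point is a gene, filled where the adjusted p is under 0.05, and the vertical line of each list is its median. Filled points lie to the left for Notum, Mycn, Sox9, Sox17, Sox18, Foxq1, Cldn5, Apcdd1, Dact2 and Vegfa and to the right for Tinagl1, Slc2a1 and Mfsd2a, and all medians but that of the endothelial list, -0.24, are near 0.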

How the data were processed

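Per the labels' protocols, total RNA was made into RNA-seq libraries by a kit that keeps strand. The submitters' processing notes list Bowtie2 2.2.3, TopHat2 2.0.13, Trimmomatic 0.32 and build mm10. The deposited values are expected counts per NCBI gene ID; the sources used here name neither the counting tool nor its use of strand. Expected counts were rounded to whole numbers. Symbols and extents came from RefSeq GRCm38.p6, which mm10 names, and exon lengths for CPM per kb from GENCODE M21 on GRCm38. Unmatched features held 0.265% of the counts.

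Features were filtered with filterByExpr, scaled by TMM (factors 0.987 to 1.01) and tested with edgeR 4.0.16 in R 4.3.3 (glmQLFit, robust), 1 mean per group over all 9 libraries, with Benjamini-Hochberg adjustment. The SE is the log2 fold change divided by the square root of F. The biological coefficient of variation was 6.95%. The test was checked on simulated counts. Alternatives were DESeq2 1.42.0, limma-voom (limma 3.58.1), other scalings and filters, a threshold of 0.1, no robust moderation, fits of only the groups compared, each library left out, and the replicate block.

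The members and lists were chosen with earlier results of these data known. Named with full values are members called in any comparison, the 6 of lowest p in each, and the effectors and co-receptors; of each list, the genes called, up to 4, and otherwise up to 2 of lowest p. Full values of Wnt7a, Wnt2, Wnt16, Fzd6, Sfrp1, Dkk2, Vegfa and Plvap, and the mention of Apc, Gsk3b, Porcn, Wls, Sox4, Jun, Tnfrsf19 and of targets that did not pass, were added after their values were seen. Vehicle and inhibitor libraries of the same replicate number deviated together (correlations of 0.281, 0.147 and 0.286), and those of different number ran from -0.295 to 0.00865. However, NS replicate 1 and SA:ANH-KDM5Ci replicate 3, of different number, correlated at 0.306. The labels state no pairing, and this check cannot establish one with 3 libraries per group. The replicate block is therefore given only as an alternative. The alternatives for the lists were also added then. A gene that the rule names is not reported here.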

Additional observations from a re-analysis of the deposited data

How the results depend on the processing

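In 972 values from 18 alternatives of 54 member fold changes, 876 kept direction and side of the threshold, 45 lost a call, 14 gained one and 37 changed sign, none of the latter among values called in the full fit. Against vehicle, 1 member was higher and 3 were lower; 2 were higher under DESeq2, with only the 2 groups, without robust moderation and at a threshold of 0.1, and lower members numbered 1 with only the 2 groups, 2 with limma-voom and with DESeq2 size factors, and 4 by library size without TMM and at a threshold of 0.1. For vehicle against NS, 0 were lower but 1 under DESeq2. Against NS, 2 were higher (1 with only the 2 groups) and 3 lower (4 under DESeq2 and by library size without TMM, 6 at a threshold of 0.1). Leaving out a library gave 0 to 2 higher and 1 to 4 lower members against vehicle, 0 for vehicle against NS, and 0 to 2 higher and 1 to 4 lower against NS. Wnt3 against NS held in 2 of those 9 fits (adjusted p up to 0.125). Over all features, vehicle against NS gave 2 calls, but 81 under DESeq2, 11 by library size without TMM, 11 without a filter and 17 with only those groups. Lower targets of beta-catenin numbered 4 to 6 against vehicle and 5 to 8 against NS with a library left out, and lower endothelial genes 5 to 6 and 4 to 7. The cause of these differences was not tested, except that fits with a library left out or only 2 groups hold fewer samples. With the replicate block, 1 member was higher and 2 lower (Wnt9a and Axin2) against vehicle; apart from Lef1, Fzd8 and Axin2, it changed no call of a member or of a gene of the 7 lists in that comparison. For the comparisons with NS, same-numbered libraries correlated between -0.19 and 0.198, and the labels state no pairing there either. The block gave 0 members for vehicle against NS and 2 higher and 3 lower for the inhibitor against NS. Sign changes were small: by library size without TMM, Lrp6 and Tcf7l2 against vehicle were -0.018 and -0.021 and Axin1 for vehicle against NS 0.0071, and with limma-voom Tcf7l2 against vehicle was -0.020 and Wnt3 for vehicle against NS 0.019. With a library left out, values against vehicle ran from -0.16 to 0.12 for Fzd10os, -0.097 to 0.14 for Fzd2, -0.069 to 0.015 for Ctnnb1, -0.016 to 0.28 for Lrp5, -0.073 to 0.085 for Lrp6 and -0.12 to 0.12 for Tcf7l2. For vehicle against NS they ran from -0.47 to 0.53 for Wnt3, -0.079 to 0.11 for Lef1, -0.044 to 0.11 for Fzd8, -0.089 to 0.016 for Axin2, -0.067 to 0.016 for Ctnnb1, -0.064 to 0.095 for Lrp6, -0.037 to 0.026 for Axin1 and -0.037 to 0.077 for Tcf7l2, and against NS from -0.15 to 0.060 for Lrp5, -0.017 to 0.073 for Lrp6, -0.054 to 0.058 for Tcf7l1 and -0.096 to 0.14 for Tcf7l2. Depth limits the 7 untested members, all below 1 CPM in every library.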

Other observations

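The 7 members that were not tested had few reads. Wnt8b, a ligand of the cortical hem and hippocampus, had 10, 2 and 5 counts with the inhibitor, 4, 0 and 1 with vehicle and 2, 0 and 0 in NS. Wnt3a, which lies 16.1 kb from Wnt9a, had 7, 6 and 8.92 counts with the inhibitor, 6, 3 and 5 with vehicle and 0, 4.5 and 1 in NS. Wnt11 had 4 to 9 counts in every library. Dkk1, a classical inhibitor of Lrp5 and Lrp6, had 0.44 to 2.33 expected counts in every library.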
